A study of Mus musculus with 12 samples.

Results

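The regulators described here are 10 genes that set the fuel and mitochondrial programme of the heart, measured in hearts of carbon tetrachloride (CCl4) treated and Control mice. They are the peroxisome proliferator-activated receptors Ppara, Ppard and Pparg, their dimer partner Rxra, the coactivators Ppargc1a and Ppargc1b (PGC-1α and PGC-1β), the oestrogen-related receptors Esrra, Esrrb and Esrrg, and the corepressor Nrip1. They are a fixed list of 10 gene rows out of 31722 in the expression table, and all 10 met the expression filter that left 14087 genes to be tested. The hearts came from C57BL/6J mice, 6 given CCl4 and 6 in the Control group. CCl4 is a solvent toxic to the liver, given here to model cirrhosis, and the study asked how cirrhosis bears on the heart. Its labels give no dose, duration, vehicle, age or sex, and they carry no measure of the liver injury, so each heart is known only by its group. The labels name heart tissue without saying which part of the heart, and no engineered allele in either group.

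PPARs are nuclear receptors that bind fatty acids and their derivatives. They sit on DNA as dimers with a retinoid X receptor and switch on genes of fatty acid uptake, oxidation and storage. PGC-1 coactivators bind no DNA of their own: they dock on PPARs and on ERRs, orphan receptors that bind a single extended AGGTCA site as monomers or dimers, and raise the transcription of oxidative metabolism and mitochondrial genes. NRIP1 (RIP140) docks on the same receptors and holds those genes down. In the adult heart PPARα and the ERRs are known for maintaining fatty acid use, and PPARγ is known from adipocytes and, in the vessel wall, from endothelial cells.

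PPARs and ERRs read the hexamer AGGTCA, and PPAR dimers read a direct repeat of it spaced by 1 base. The promoter windows that carry this hexamer among the 10 genes are shown, since these receptors are known to act on one another's genes. RefSeq windows on GRCm38.p6, from 250 bases before to 50 bases after a transcript start, matched 9 of the 10 genes with 17 windows, and both strands were searched. AGGTCA was found in 3 of the 17 windows, against 16.3% of all 32851 windows of this length. The 3 windows are given 5′ to 3′ on the plus strand, with each match in capitals: Pparg window 1 at chr6:115360894-115361193, Pparg window 2 at chr6:115362099-115362398 and Rxra window 2 at chr2:27709042-27709341.
Pparg window 1: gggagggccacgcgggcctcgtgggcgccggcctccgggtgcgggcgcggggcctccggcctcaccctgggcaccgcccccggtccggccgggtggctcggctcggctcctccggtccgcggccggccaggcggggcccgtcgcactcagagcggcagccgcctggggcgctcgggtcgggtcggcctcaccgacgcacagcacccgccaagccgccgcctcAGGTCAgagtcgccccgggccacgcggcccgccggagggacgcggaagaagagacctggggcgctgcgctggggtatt
Pparg window 2: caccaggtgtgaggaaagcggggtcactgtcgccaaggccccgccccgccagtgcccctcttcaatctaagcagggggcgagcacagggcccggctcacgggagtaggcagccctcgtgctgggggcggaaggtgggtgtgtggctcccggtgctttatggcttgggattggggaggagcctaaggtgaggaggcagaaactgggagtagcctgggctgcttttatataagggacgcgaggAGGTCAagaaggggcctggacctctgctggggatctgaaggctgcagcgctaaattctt
Rxra window 2: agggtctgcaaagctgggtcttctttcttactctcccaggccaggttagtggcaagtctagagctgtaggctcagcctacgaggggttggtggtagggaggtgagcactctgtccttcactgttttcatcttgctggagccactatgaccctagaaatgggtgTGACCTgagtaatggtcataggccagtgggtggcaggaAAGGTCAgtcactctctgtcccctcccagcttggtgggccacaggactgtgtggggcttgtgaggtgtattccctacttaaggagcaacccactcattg
In Pparg the match begins 28 bases before the start in window 1 and 9 bases before it in window 2. In Rxra window 2 the plus strand holds AAGGTCA, which contains the hexamer, from 49 bases before the start, and TGACCT, the hexamer on the minus strand, lies 87 bases before it. AAGGTCA was in 1 of 17 windows (4.72% of all windows). TNAAGGTCA, the extended ERR element, was in 0 (1.28%), the direct repeat of AGGTCA spaced by 1 in 0 (0.0396%), the cyclic AMP element TGACGTCA in 0 (1.79%) and the E-box CACGTG in 0 (7.15%). A match describes letters in a window, not a bound site, and the expression values are per gene, so they do not tell these starts apart.

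Expression is in RPKM, a read density per gene length corrected for library size, a unit on which genes of different length can be set side by side. Relative depth, in the smallest steps the RPKM values show, ran from 26308903 (Control replicate 6) to 63371211 (CCl4 replicate 4), and libraries correlated pairwise across genes at r = 0.944 to 0.99. Mitochondrial transcripts took 31.56% to 43.7% of the values in CCl4 hearts and 29.4% to 37.8% in Control hearts, the most in CCl4 replicate 2. Summed cardiomyocyte markers (7 genes, among them Myh6, Tnnt2 and Ttn) were at 16956 to 26517 RPKM in CCl4 hearts and 23327 to 29390 RPKM in Control hearts. Myh6, the largest part of that sum, averaged 13468 RPKM in CCl4 and 16213 RPKM in Control hearts. By the fitted log2 fold change 5 of the 7 were lower and 2, Tnnt2 and Mybpc3, higher. Summed liver markers (Alb, Apoa1, Ttr) were at 0.0854 to 0.643 RPKM in CCl4 and 0.0727 to 0.493 RPKM in Control hearts. Xist was present in 4 hearts of each group and near 0 in 2 of each group, replicates 2 and 5. The atrial markers Myl7 and Myl4 and the adipocyte marker Adipoq were highest in CCl4 replicate 4 and Control replicate 1, here called the atrium-rich pair. Atrial RNA was not confined to this pair: Myl7 was at 141, 181 and 179 RPKM in Control replicates 2, 3 and 5. In the other CCl4 hearts it was at 0.811 to 28.7 RPKM, and 5 of 6 CCl4 hearts lay below its Control median (limma adjusted p = 0.547). Of the 4 tested atrial markers 3 were lower in CCl4 hearts and 1, Nppa, was higher (log2 fold change 0.58, limma adjusted p = 0.856).

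None of the 10 regulators passed the test of CCl4 against Control (limma on log2(RPKM + 1), Benjamini-Hochberg adjusted p under 0.05 over all genes tested), and neither did any other gene: 0.0% of genes were called higher and 0.0% lower, with 226 genes (1.6%) higher and 1209 (8.58%) lower at an unadjusted p under 0.05. Of the 10 members 8 had a lower and 2 (Ppargc1a and Nrip1) a higher level in CCl4 hearts by the fitted log2 fold change, where 65.7% of all genes tested were lower. At the unadjusted threshold 2 members, Pparg and Ppara, were lower and 0 were higher. Pparg stayed under that threshold in all 29 alternatives, but Ppara left it in 13 of 28, among them median-of-ratios, quantile and mitochondria-free scaling, the atrial marker covariate and single hearts left out. Under median-of-ratios and quantile scaling Ppard was under it in place of Ppara, and with array weights 5 members were. Pparg was the 1 member whose groups did not overlap, with every CCl4 heart below every Control heart, as for 0.724% of genes tested. The opposite separation, CCl4 above Control, held for 0 members and 0.0355% of genes. The median log2 fold change was -0.12 over the members and -0.05 over all genes.

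**Figure D1:**
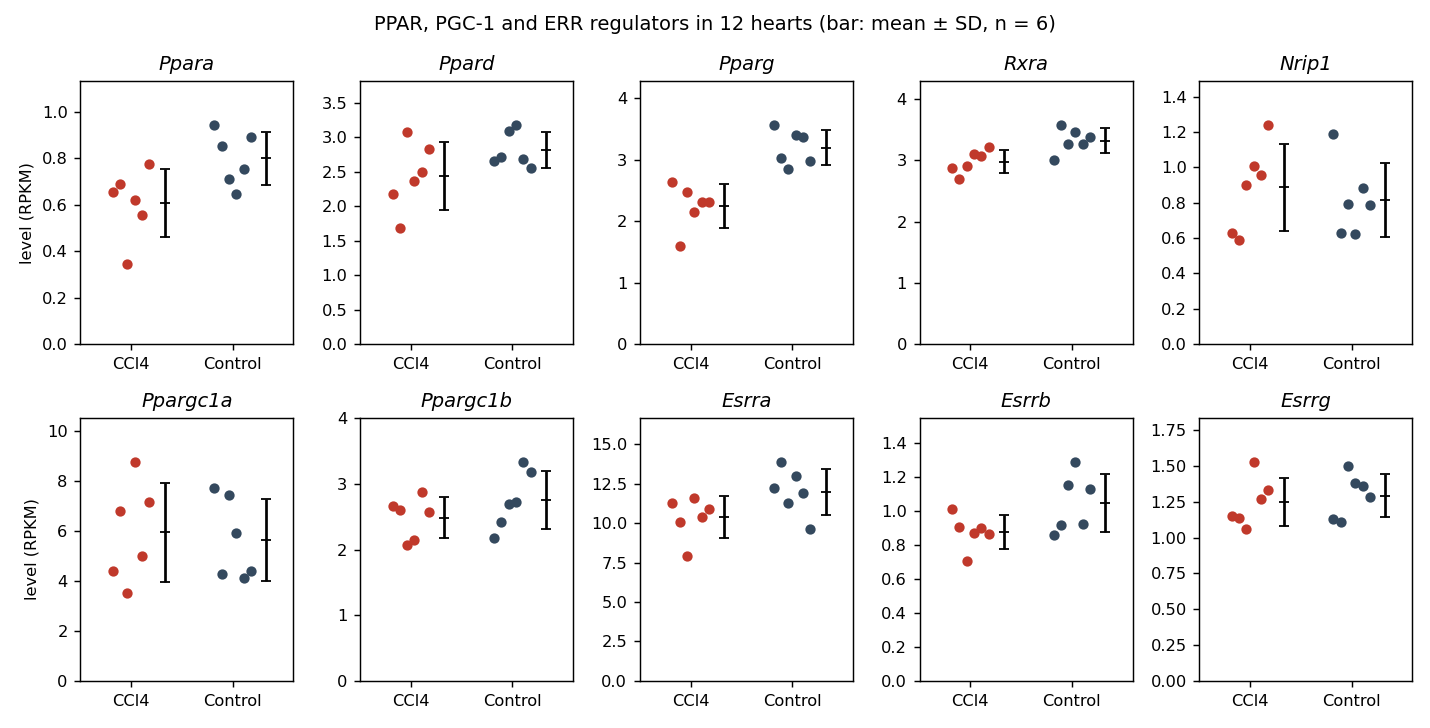
RPKM (vertical axis, from 0) of each regulator in each of the 6 CCl4 hearts (red) and 6 Control hearts (dark blue), replicates 1 to 6 from left to right within a group, with mean ± SD beside the points. The Pparg groups do not overlap (1.6 to 2.64 RPKM in CCl4 hearts, 2.85 to 3.57 RPKM in Control hearts); the other 9 panels overlap.

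Pparg, the PPAR of adipocytes and vascular cells (chromosome 6, 115360951 to 115490399, plus strand, GRCm38), had the largest log2 fold change of the 10 in size. Its level was 1.6 at the lowest, 2.32 at the median and 2.64 at the highest in CCl4 hearts, against 2.85, 3.2 and 3.57 RPKM in Control hearts. All 6 CCl4 hearts lay below all 6 Control hearts. The means were 2.25 ± 0.36 RPKM in CCl4 and 3.2 ± 0.284 RPKM in Control hearts (SD, n = 6 each), 29.7% lower in CCl4 hearts. The log2 fold change was -0.38 (SE 0.088, 95% interval -0.57 to -0.19) and the adjusted p from limma was 0.179. The exact two-sided permutation test of this gene alone gave p = 0.00216, the smallest that 6 hearts against 6 allow, and by unadjusted limma p it stood 59th of 14087 genes. CCl4 replicate 2 was the lowest heart, and without it the log2 fold change was -0.31 (adjusted p = 0.27).

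The separation of the Pparg groups depended on the scaling of the libraries. With libraries scaled by the median of ratios, Pparg was at 2.04 to 3.1 in CCl4 and 2.7 to 3.38 in Control hearts, with 5 of 6 CCl4 hearts below all Control hearts. With mitochondrial transcripts taken out before scaling (mitochondria-free scaling) it was at 1.86 to 2.91 and 2.68 to 3.47, again 5 of 6. With TPM scaling the groups stayed apart (1.93 to 3.43 in CCl4 and 3.87 to 5.01 in Control hearts). The log2 fold change was negative under all 29 alternatives tried (-0.50 to -0.31), and the adjusted p was under 0.05 under 1 of them, limma's array weights (0.00364), with the range over all of them reaching 0.478. The array weights leaned on 1 CCl4 heart: replicate 5 had a weight of 5.7, the other CCl4 hearts 0.2575 to 1.229.

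Endothelial and adipocyte markers were set beside Pparg, since both cell types are known to express it. The 6 endothelial markers (Pecam1, Cdh5, Kdr, Tie1, Esam, Emcn) summed to 82.7 to 126 RPKM in CCl4 hearts and 132 to 160.5 RPKM in Control hearts, and again all 6 CCl4 hearts lay below all Control hearts. All 6 genes had a negative log2 fold change (median -0.40), where 65.7% of all genes tested were lower, and 0 passed. Emcn was nearly level (log2 fold change -0.06, limma adjusted p = 0.911). None of the 6 was at 0 RPKM in all hearts. In bulk tissue, fewer cells of a type and less RNA per cell cannot be told apart. The log2 ratio of Pparg to the summed endothelial markers averaged -5.52 ± 0.151 in CCl4 and -5.49 ± 0.178 in Control hearts (SD, n = 6 each), a difference of -0.04 with overlapping groups. Its ratio to Cdh5, the vascular cadherin, differed by -0.05. Its ratio to Rxra differed by -0.36: it averaged -0.42 ± 0.223 in CCl4 and -0.06 ± 0.187 in Control hearts, with 6 of 6 CCl4 hearts below the Control median and 4 below all Control hearts. These ratios were chosen after the values were seen and carry no test, and the part that endothelial RNA has in the Pparg difference was not tested.

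**Figure D2:**
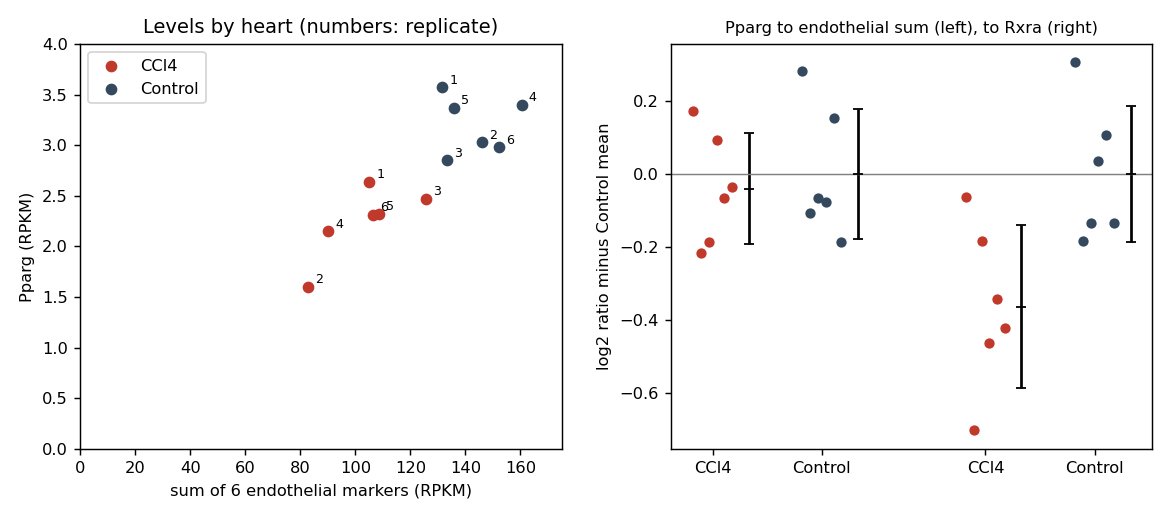
Left, Pparg (RPKM) against the summed RPKM of 6 endothelial markers in each CCl4 (red) and Control (dark blue) heart, numbered by replicate. CCl4 hearts lie lower on both axes (82.7 to 126 against 132 to 160.5 for the markers). Right, log2 ratios of Pparg to the endothelial sum and to Rxra minus the Control mean, with mean ± SD (n = 6 each); the first differs between groups by -0.04 and the second by -0.36.

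The adipocyte list (8 genes, 4 of them tested) summed to 14 to 69.5 RPKM in CCl4 hearts and 15.4 to 55.2 RPKM in Control hearts. Cidea alone, a large part of that sum, was at 11.2 to 29.5 and 12.5 to 21 RPKM, with a log2 fold change of 0.28. The other 3 of the 4 tested genes were lower: Adipoq (-0.84), Cidec (-0.82) and Cfd (-1.25), with a smallest limma adjusted p of 0.532. For each listed gene but Cidea, 5 of 6 CCl4 hearts lay below the Control median. Adipoq, the adiponectin gene, was at 10.7 RPKM in CCl4 replicate 4 and 0.142 to 0.93 RPKM in the other CCl4 hearts. Pparg in CCl4 replicate 4 was at 2.15 RPKM, the second lowest of all 12 hearts. In Control replicate 1, the Control heart with the most Adipoq (8.11 RPKM), Pparg was at 3.57 RPKM, the highest of all 12 hearts. The part that adipocyte RNA has in the Pparg values was not tested. Without the atrium-rich pair, which held the most Adipoq, the Pparg log2 fold change was -0.34 (adjusted p = 0.19).

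Ppara, the PPAR best known for cardiac fatty acid oxidation (chromosome 15, 85734983 to 85802819, plus strand), had the lowest mean level of the 10. Its level was 0.346 at the lowest, 0.638 at the median and 0.774 at the highest in CCl4 hearts, against 0.647, 0.804 and 0.944 RPKM in Control hearts. All 6 CCl4 hearts lay under the Control median and 3 under every Control heart. The means were 0.607 ± 0.147 RPKM in CCl4 and 0.8 ± 0.114 RPKM in Control hearts (SD, n = 6 each), with a log2 fold change of -0.17 (SE 0.073, 95% interval -0.32 to -0.01). It did not pass (limma adjusted p = 0.45, unadjusted p = 0.0401), and the exact permutation test gave an unadjusted p = 0.026. On the log2(RPKM + 1) scale the change of so low a gene is understated. Each value rests on 64 to 170 steps, so counting error alone is about 17.7% in the lowest heart if a fragment adds 2 steps, and that heart, CCl4 replicate 3, moved the log2 fold change to -0.12 when left out.

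Ppard, the widely expressed PPAR (chromosome 17, 28232700 to 28301474, plus strand), ran at 1.68, 2.42 and 3.08 RPKM (lowest, median, highest) in CCl4 hearts, against 2.56, 2.71 and 3.18 RPKM in Control hearts. The groups overlapped, and 4 of 6 CCl4 hearts lay under the Control median. Its means were 2.44 ± 0.493 RPKM in CCl4 and 2.82 ± 0.255 RPKM in Control hearts (log2 fold change -0.16, SE 0.098, limma adjusted p = 0.6). CCl4 replicate 2 was the lowest CCl4 heart and CCl4 replicate 3 the highest, and without replicate 2 the log2 fold change was -0.09.

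Rxra, the retinoid X receptor that PPARs pair with (chromosome 2, 27676440 to 27762957, plus strand), was the steadiest of the 10 within groups, with a coefficient of variation of 6.24% in CCl4 and 6.01% in Control hearts. It ran at 2.69, 2.99 and 3.22 RPKM in CCl4 hearts, against 3.0, 3.33 and 3.58 RPKM in Control hearts. All 6 CCl4 hearts lay under the Control median and 3 under every Control heart. The means were 2.98 ± 0.186 RPKM in CCl4 and 3.33 ± 0.2 RPKM in Control hearts, a log2 fold change of -0.12 (SE 0.065, limma adjusted p = 0.547), and the exact permutation test gave an unadjusted p = 0.0173. Its log2 fold change was -0.05 with mitochondria-free scaling and -0.19 with TPM scaling, where the median of all genes was 0.02 and -0.10. The other retinoid X receptors, Rxrg and Rxrb, were at 4.49 ± 1.3 and 2.28 ± 0.391 RPKM in CCl4 hearts and 5.26 ± 0.793 and 2.42 ± 0.468 RPKM in Control hearts.

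Ppargc1a, the inducible coactivator PGC-1α (chromosome 5, 51454250 to 51567726, minus strand), showed no group difference larger than its spread. It ran at 3.53, 5.91 and 8.78 RPKM in CCl4 hearts, against 4.1, 5.17 and 7.73 RPKM in Control hearts. The CCl4 group held both the lowest heart of the 12 (replicate 3) and the highest (replicate 4), and 3 of 6 CCl4 hearts lay on each side of the Control median. The means were 5.95 ± 1.97 RPKM in CCl4 and 5.65 ± 1.64 RPKM in Control hearts (SD, n = 6 each), and the coefficient of variation was 33.1% and 29.0%. The log2 fold change was 0.05 (SE 0.198, limma adjusted p = 0.953), and its 95% interval allows a fold between 0.771 and 1.39 on the RPKM + 1 scale. The sign was negative with TPM scaling (-0.02) and when any of 5 single hearts was left out.

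Ppargc1b, the related coactivator PGC-1β (chromosome 18, 61298136 to 61400431, minus strand), ran at 2.07, 2.59 and 2.88 RPKM in CCl4 hearts, against 2.17, 2.72 and 3.34 RPKM in Control hearts. The groups overlapped, with 5 of 6 CCl4 hearts under the Control median. The means were 2.49 ± 0.315 RPKM in CCl4 and 2.76 ± 0.441 RPKM in Control hearts (log2 fold change -0.11, SE 0.093, 95% interval -0.31 to 0.10, limma adjusted p = 0.743), and the log2 fold change was -0.07 without CCl4 replicate 3 and -0.06 without Control replicate 5. Mir378a, a microRNA gene in an intron of Ppargc1b, was at 4.55 ± 1.68 RPKM in CCl4 and 6.23 ± 2.94 RPKM in Control hearts (adjusted p = 0.701). The libraries were of messenger RNA, so these values are not a measure of the mature microRNA. The ratio of the 2 coactivators, Ppargc1a to Ppargc1b, averaged 1.2 ± 0.525 in CCl4 and 1.0 ± 0.586 in Control hearts on the log2 scale, with overlapping groups.

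Nrip1, the corepressor RIP140 (chromosome 16, 76287400 to 76373827, minus strand), ran at 0.59, 0.926 and 1.24 RPKM in CCl4 hearts, against 0.623, 0.788 and 1.19 RPKM in Control hearts. The groups overlapped over nearly their whole range, with 4 of 6 CCl4 hearts above the Control median. The means were 0.887 ± 0.245 RPKM in CCl4 and 0.817 ± 0.208 RPKM in Control hearts (log2 fold change 0.05, SE 0.098, 95% interval -0.16 to 0.26, limma adjusted p = 0.898). The log2 fold change was 0.0 without CCl4 replicate 6, its highest heart, and 0.11 without Control replicate 1. The log2 ratio of Ppargc1a to Nrip1, activator to repressor, averaged 2.73 ± 0.551 in CCl4 and 2.78 ± 0.408 in Control hearts, a difference of -0.05.

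Esrra, the oestrogen-related receptor α (chromosome 19, 6910977 to 6921813, minus strand), had the highest mean level of the 10. It ran at 7.9, 10.6 and 11.6 RPKM in CCl4 hearts, against 9.63, 12 and 13.9 RPKM in Control hearts. All 6 CCl4 hearts lay under the Control median, 1 of them under every Control heart. The means were 10.4 ± 1.33 RPKM in CCl4 and 12 ± 1.47 RPKM in Control hearts, with a log2 fold change of -0.20 (SE 0.105, 95% interval -0.42 to 0.03, limma adjusted p = 0.546). Without CCl4 replicate 3, its lowest heart, the log2 fold change was -0.13. Esrra shares 73 exon bases (1.66% of its exons) with Trmt112 on the opposite strand and 91 with Mir6990, and with the strand setting of the counting not given those reads are uncertain; Trmt112 had a log2 fold change of -0.03.

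Esrrb (chromosome 12, 86361117 to 86521628, plus strand), the ERR best known from embryonic stem cells, ran at 0.704, 0.885 and 1.01 RPKM in CCl4 hearts, against 0.859, 1.03 and 1.29 RPKM in Control hearts. All 6 CCl4 hearts lay under the Control median, and the groups overlapped. Its means were 0.875 ± 0.0984 RPKM in CCl4 and 1.05 ± 0.17 RPKM in Control hearts (log2 fold change -0.12, SE 0.069, limma adjusted p = 0.563). Esrrg (chromosome 1, 187608791 to 188214885, plus strand), the ERR known for the oxidative programme of heart and slow muscle, ran at 1.06, 1.21 and 1.53 RPKM in CCl4 hearts, against 1.11, 1.32 and 1.5 RPKM in Control hearts. Its means were 1.25 ± 0.172 RPKM in CCl4 and 1.29 ± 0.151 RPKM in Control hearts (log2 fold change -0.03, SE 0.071, 95% interval -0.18 to 0.12, limma adjusted p = 0.921). With 1 heart left out its log2 fold change ran from -0.07 to -0.006, and the sign was positive under median-of-ratios (0.01), quantile (0.004) and mitochondria-free scaling (0.02). The log2 ratio of Esrrg to Esrra averaged -3.05 ± 0.148 in CCl4 and -3.21 ± 0.291 in Control hearts.

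**Figure D3:**
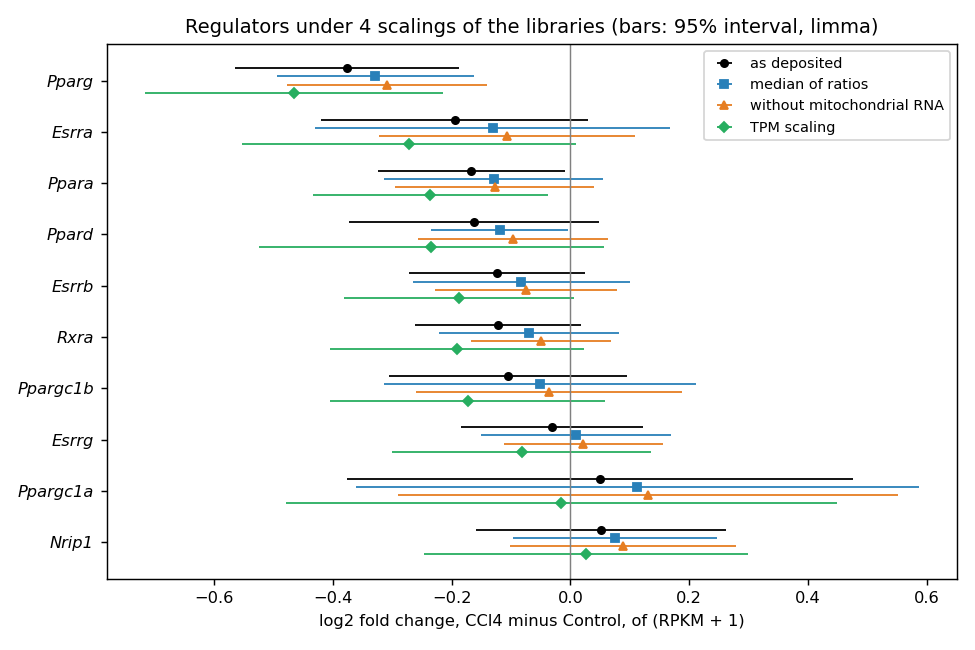
Log2 fold change, CCl4 minus Control, of RPKM + 1 for each regulator (horizontal axis; bars are 95% intervals from limma) with the libraries as deposited and under 3 other scalings. Pparg lies between -0.47 and -0.31 under these 4, and Esrrg and Ppargc1a lie on both sides of 0.

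By their mean level in Control hearts the regulators ran in the order Esrra, Ppargc1a, Rxra, Pparg, Ppard, Ppargc1b, Esrrg, Esrrb, Nrip1 and Ppara. Neighbours in this order had separate Control values at 3 of 9 steps: between Esrra and Ppargc1a, between Ppargc1a and Rxra, and between Ppargc1b and Esrrg. At the other 6 steps the Control hearts overlapped, so the order of those neighbours is not fixed. Regulators farther apart in the order could still be separate: Esrrg was at 1.11 to 1.5 RPKM and Ppara at 0.647 to 0.944 RPKM in Control hearts. Within single hearts the order was firmer for one pair: Esrrg lay above Esrrb in 12 of 12 hearts. A chosen list of 36 nuclear receptors, not every one in the data, was also ranked by mean Control level. In that list Esrra ranked 4th, after Nr1d1, Nr1d2 and Thra, and Ppara ranked 26th, behind Pparg at 13th and Ppard at 14th. The log2 ratio of Ppara to Ppard averaged -2.02 ± 0.625 in CCl4 and -1.82 ± 0.327 in Control hearts.

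The lowest values of the 10 members lay in 2 hearts, while their highest values lay in 6. CCl4 replicate 3 was the lowest of the 12 hearts for 6 members (Ppara, Ppargc1a, Ppargc1b, Esrra, Esrrb and Esrrg), although it was the lowest heart for 9.15% of all genes tested and the highest for 41.4%. CCl4 replicate 2 was the lowest for the other 4 (Ppard, Pparg, Rxra and Nrip1), and it was the lowest heart for 44.7% of all genes. The macrophage markers (Adgre1, Csf1r, Cd68, C1qa) summed to 10.2 to 68.9 RPKM in CCl4 hearts and 12.7 to 17.7 RPKM in Control hearts, and the fibroblast markers (Col1a1, Pdgfra, Dcn, Lum, Tcf21) to 73.8 to 339 and 61.1 to 172 RPKM. CCl4 replicate 3 held the most of both, with Cd68 at 16.2 RPKM and Col1a1 at 92.8 RPKM, and the lowest cardiomyocyte Myh6, at 8991 RPKM. The part of cell makeup in its low values was not tested. CCl4 replicates 4 and 6 were the highest heart for 3 members (Ppargc1a and Esrrg, and Nrip1), and Control hearts were highest for the other 7. Members that lay under the Control median in 6 of 6 CCl4 hearts numbered 5 (Ppara, Pparg, Esrra, Esrrb and Rxra), as did 11.1% of all genes tested.

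**Figure D4:**
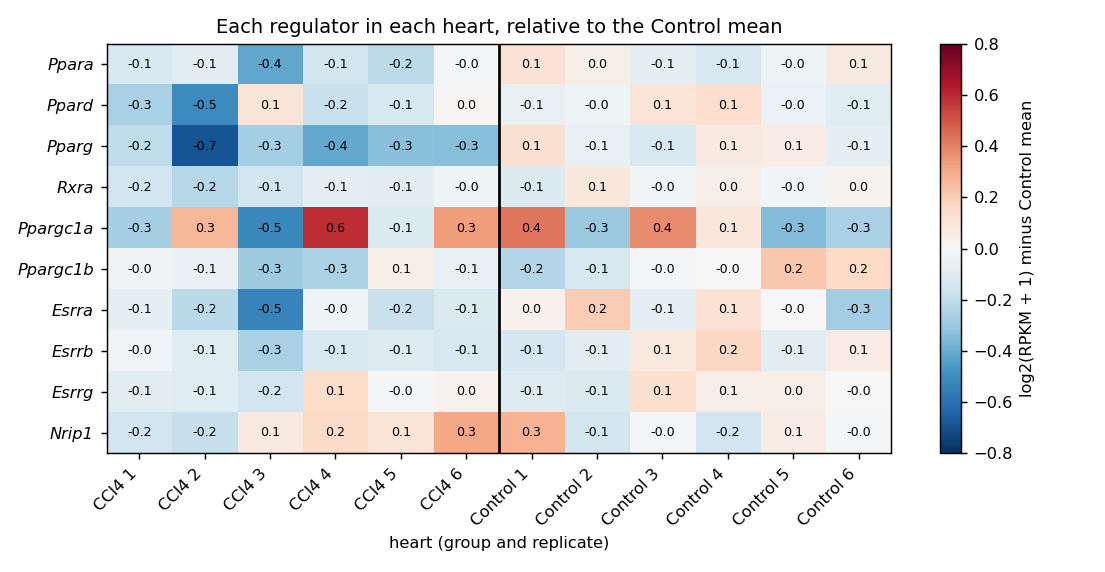
Each regulator (rows) in each heart (columns, CCl4 left of the line, Control right) as log2(RPKM + 1) minus the Control mean, blue lower and red higher. CCl4 replicates 2 and 3 hold the lowest value of every row, and Ppargc1a takes both signs within each group.

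Genes that the regulators are known to act on were listed apart from them. Of 39 PPAR-responsive genes 34 were tested: 33 were lower and 1 higher, with a median log2 fold change of -0.43, and 22 were lower at an unadjusted p under 0.05, but 0 passed (smallest limma adjusted p 0.0731). Of all genes tested 65.7% were lower, 8.58% were lower at that unadjusted threshold, and the median was -0.05. Pdk4, the kinase that shuts pyruvate out of the citrate cycle, was at 7.35, 19 and 40 RPKM (lowest, median, highest) in CCl4 hearts, against 40.6, 54.7 and 87.7 RPKM in Control hearts, and every CCl4 heart lay below every Control heart (log2 fold change -1.56, SE 0.3, adjusted p = 0.094). Pex11a, which acts in peroxisome division, was at 0.868, 1.12 and 1.28 RPKM in CCl4 hearts and its groups also did not overlap (Control median 1.75 RPKM, log2 fold change -0.43, adjusted p = 0.0731). The fatty acid carrier Cd36 was at 44.9 ± 8.76 RPKM in CCl4 and 79.6 ± 16.4 RPKM in Control hearts (adjusted p = 0.0949), and the acyl-CoA thioesterase Acot1 at 0.809 ± 0.334 and 2.27 ± 0.753 RPKM (adjusted p = 0.0916); its near-identical copy Acot2 can share its reads. Single hearts decided whether these 4 genes passed: without CCl4 replicate 1 the adjusted p was 0.037 for Pex11a, 0.0244 for Acot1, 0.0205 for Pdk4 and 0.0427 for Cd36, and without Control replicate 1 all but Pdk4 passed. The list's median was -0.35 without CCl4 replicate 3 and -0.42 without CCl4 replicate 2. Angptl4, a PPAR-induced inhibitor of lipoprotein lipase that was too low to be tested and was named after its values were seen, was at 0.209 ± 0.0786 RPKM in CCl4 and 0.768 ± 0.395 RPKM in Control hearts, without overlap.

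The 24 PGC-1 and ERR target genes are mostly of the respiratory chain, citrate cycle and mitochondrial upkeep, with others such as Vegfa, Ckm, Fndc5 and Perm1. All 24 were tested and lay lower as deposited, with a median of -0.20. At an unadjusted p under 0.05, 5 were lower, while 0 passed (smallest adjusted p 0.213, for Vegfa). Among all genes tested 65.7% were lower, 8.58% at that unadjusted threshold, with a median of -0.05. With libraries scaled by the median of ratios 2 of the 24 were higher, and with mitochondria-free scaling 4 were. Vegfa, the vascular growth factor that PGC-1α can induce, was at 124 ± 22.5 RPKM in CCl4 and 176 ± 24.4 RPKM in Control hearts (log2 fold change -0.51, SE 0.126), and it passed without CCl4 replicate 1 (adjusted p = 0.0427). The ATP synthase subunit gene Atp5o was at 123 ± 19.3 RPKM in CCl4 and 149.8 ± 19.3 RPKM in Control hearts, and Slc25a4, the adenine nucleotide carrier, at 885 ± 172 and 1085 ± 113 RPKM. Fumarase, Fh1, was at 31.9 ± 6.44 RPKM in CCl4 and 39.9 ± 4.94 RPKM in Control hearts. The list's median was -0.11 without CCl4 replicate 3, the heart lowest in Atp5o, Fh1 and Slc25a4. Perm1, a muscle regulator that works with PGC-1 and ERRs, was at 29.9 ± 5.34 RPKM in CCl4 and 33 ± 3.13 RPKM in Control hearts.

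**Figure D5:**
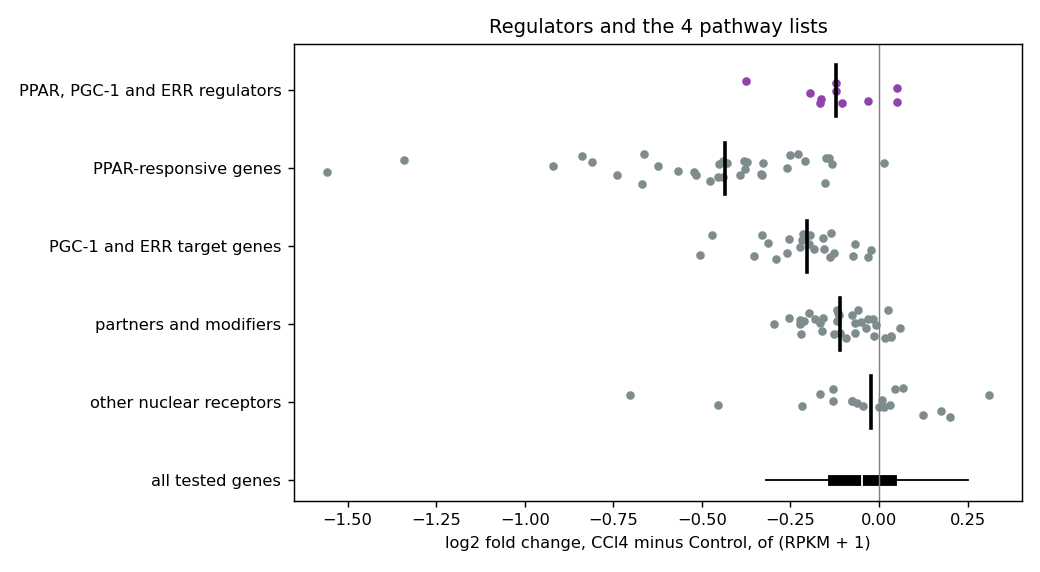
Log2 fold change, CCl4 minus Control, of RPKM + 1 (horizontal axis) for each tested gene (points) of the regulators and of 4 pathway lists, with the list median as a vertical bar. For all genes tested the thick bar is the interquartile range, the thin line runs from the 5th to the 95th percentile and the white tick is the median. The medians are -0.12 for the regulators, -0.43 for PPAR-responsive genes and -0.20 for PGC-1 and ERR target genes.

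Of 34 partners and modifiers (cofactors, kinases and transcription factors that work with or upstream of the regulators) 33 were tested, with 28 lower, 5 higher, a median of -0.11 and 0 passing (smallest adjusted p 0.302). Of these 33, 6 were lower and 0 higher at an unadjusted limma p under 0.05. Across all genes tested 65.7% were lower, 8.58% at that unadjusted threshold, with a median of -0.05. With mitochondria-free scaling 14 of the partners and modifiers were higher, and without CCl4 replicate 2 their median was -0.06. Fbxw7, a ubiquitin ligase subunit, was at 3.7 ± 0.494 RPKM in CCl4 and 4.77 ± 0.577 RPKM in Control hearts, and Mapk14, the p38α kinase that can phosphorylate PGC-1α, at 2.7 ± 0.413 and 3.39 ± 0.21 RPKM. The myocyte enhancer factors Mef2d and Mef2a, which act on the Ppargc1a promoter, had log2 fold changes of -0.21 (SE 0.089) and -0.18 (SE 0.076), against 0.06 (SE 0.098) for Mef2c. Prox1, the acetyltransferase Ep300 and the coactivator Ncoa2 lay close to 0, with log2 fold changes of 0.04, 0.03 and 0.03 (limma adjusted p = 0.924, 0.938 and 0.942), each negative with TPM scaling.

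Other nuclear receptors showed no common side: of 27 listed, 20 were tested, 9 higher and 11 lower, with a median of -0.02 (-0.05 to -0.002 with 1 heart left out) and 0 passing (smallest adjusted p 0.269). At an unadjusted limma p under 0.05, 3 were lower and 0 higher, as were 8.58% and 1.6% of all genes tested. Of all genes tested 65.7% were lower, and their median was -0.05. Nr4a1, an immediate early orphan receptor, was at 1.54 ± 0.267 RPKM in CCl4 and 3.36 ± 1.64 RPKM in Control hearts (log2 fold change -0.70, SE 0.201). The thyroid hormone receptor Thra was at 11.1 ± 1.33 and 13.1 ± 1.38 RPKM, the clock repressor Nr1d1 at 10.6 ± 2.77 and 15 ± 4 RPKM, and the liver X receptor Nr1h3 at 1.99 ± 0.197 and 2.36 ± 0.333 RPKM. On the higher side Nr1d2 was at 15.9 ± 1.61 RPKM in CCl4 and 13.8 ± 1.96 RPKM in Control hearts, Rora at 1.31 ± 0.289 and 1.04 ± 0.203 RPKM, and Nr2f2 at 5.23 ± 1.25 and 4.71 ± 1.11 RPKM.

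Whether regulators varied together from heart to heart was examined for 8 pairs, and in none was a Benjamini-Hochberg adjusted permutation p under 0.05. The largest correlation was between Ppara and Pdk4, its classic target, over 12 hearts (r = 0.662, permutation p = 0.0181, adjusted p = 0.145; rho = 0.427, permutation p = 0.17). Within groups it took opposite signs, r = 0.694 in CCl4 hearts (exact p = 0.157, rho = 0.0286) and -0.536 in Control hearts (exact p = 0.276). Without the 2 hearts farthest in Ppara the pooled r was 0.308. Both genes had lower means in CCl4 hearts, and the part of that difference in the pooled r was not tested. Ppargc1a and Esrrg correlated at r = 0.522 (permutation p = 0.0835, adjusted p = 0.223; rho = 0.49, permutation p = 0.111), with r = 0.814 in CCl4 hearts (exact p = 0.0458, adjusted p = 0.251) and 0.173 in Control hearts (exact p = 0.711). Without CCl4 replicates 3 and 4 the pooled r was 0.178. Ppargc1a and Esrra, which form a known regulatory loop, gave r = 0.305 (permutation p = 0.345, adjusted p = 0.37; rho = 0.196, permutation p = 0.545) and -0.0769 without the same hearts. Esrra and Perm1 gave r = 0.589 (permutation p = 0.0614, adjusted p = 0.223; rho = 0.175, permutation p = 0.588), and -0.259 without the 2 hearts farthest in Esrra. The other 4 pairs gave r between -0.323 and 0.411, with adjusted p of at least 0.363.

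Of 11149 tested genes with a descriptive symbol, those nearest to each regulator in their order over the 12 hearts were found by the mean absolute difference in rank. Pparg was nearest to Ercc1, a DNA repair endonuclease subunit (mean difference of 0.667 ranks), and Caskin2 (0.833). Ppargc1a was nearest to Txlnb (0.833) and Klhl21 (1), Ppara to Cd46 (1.17) and Aasdh (1.5), Ppard to Ap1m1 (0.333) and Usp10 (0.5), and Rxra to Ablim1 (0.5) and Denr (0.833). Among the ERRs, Esrra was nearest to Dhrs11 and Rnf123 (0.667 each), Esrrb to Cryba4 and Yipf7 (0.833 each), and Esrrg to the mitochondrial elongation factor Gfm1 and to Acyp2 (0.667 each). Ppargc1b was nearest to Atp5k and Mcc (1.5 each), and Nrip1 was nearest to Mllt3 (0.5) and Fzd1 (0.667). No regulator was among the nearest genes of another. The likeness is a description, with no test.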

How the data were processed

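Messenger RNA of 12 mouse hearts, 6 CCl4 and 6 Control, was sequenced from stranded libraries, per the labels' protocols. The submitters' processing notes name Trimmomatic 0.36, featureCounts and Subread 1.5.1, and the build GRCm38; aligner, annotation and strand setting are not given in the sources used here. RPKM values were deposited by the authors for 31722 gene symbols, 1 column per heart, and 0 columns were left unused. Since RPKM is not a count, relative depth was read from the spacing of low values after multiplying by exon length (GENCODE release M21, 95.4% of symbols matched). Of values up to 30 spacings, or steps, 92.55% to 93.88% were whole to within 0.05 and 70.29% to 73.96% even, so 1 fragment may add 2 steps.

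Genes with at least 0.5 RPKM in at least 6 hearts entered a limma 3.58.1 trend fit (R 4.3.3) to log2(RPKM + 1) over all hearts, with no covariate and Benjamini-Hochberg adjustment over 14087 genes. Fold changes on that scale understate the change of low genes. Exact permutation tests used all 924 splits, and pooled correlations used 100000 permutations. P-values of the group comparison set the difference between groups against the variation between these mice. Sample titles gave the groups and replicate numbers, and do not say whether the numbers pair the hearts.

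The regulators, the 4 pathway lists and the marker lists were chosen with earlier results of these data known. Genes named besides the regulators are the up to 4 of smallest p in each direction per pathway list (mean of at least 1 RPKM in a group), the 2 nearest genes in rank order and defining markers. Angptl4, Acot2, Mir378a, Trmt112, Perm1 and the ratios of Pparg to endothelial markers, Cdh5 and Rxra fall outside that rule, and 1 gene that the rule names is not reported here. Alternatives were other pseudocounts, filters and scalings, array weights, a robust fit, a replicate block, atrial marker and Xist covariates, exact tests and left-out hearts. Promoter windows are RefSeq's on GRCm38.p6, and gene positions are GENCODE's on GRCm38, 1-based. Python 3.11.15 with pandas 2.3.3, numpy 2.4.6, scipy 1.17.1 and matplotlib 3.10.9 made the tables and plots.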

Additional observations from a re-analysis of the deposited data

Results flagged for a closer look

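Of 66 groups of 6 hearts checked for 1 heart far from the other 5 (Dixon's criterion at 95%, which chance alone meets in about 1 group in 20), 5 met it, and none of the 10 regulators was among them. Acot1 was at 1.47 RPKM in CCl4 replicate 1, against 0.598 to 0.806 RPKM in the other CCl4 hearts. Vegfa was at 168 RPKM in the same heart, against 103 to 122 RPKM in the other CCl4 hearts. Slc25a4 was at 572 RPKM in CCl4 replicate 3, against 870 to 1045 RPKM in the other CCl4 hearts. Rora was at 1.43 RPKM in Control replicate 1, against 0.887 to 1.06 RPKM in the other Control hearts. Prox1 was at 0.918 RPKM in Control replicate 6, against 1.24 to 1.41 RPKM in the other Control hearts.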

How the results depend on the processing

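Of the 10 regulators, Pparg alone passed under any alternative, with array weights (adjusted p = 0.00364), and Ppargc1a and Esrrg alone changed sign. Results with array weights rest largely on 1 CCl4 heart, replicate 5, with a weight of 5.7 against 0.2575 to 1.229 in the other CCl4 hearts. The counts of genes called, 0 higher and 0 lower, moved to 770 and 1479 with array weights, 2 and 17 with an atrial marker covariate, 96 and 211 without both hearts numbered 1, and 1 higher without the atrium-rich pair. Leaving out 1 heart gave 0 to 7 higher and 0 to 39 lower: 7 and 39 without CCl4 replicate 1, 6 and 24 without Control replicate 1, 1 and 0 without CCl4 replicate 4, and 0 and 2 without CCl4 replicate 6. Without both hearts numbered 1, Pparg was at -0.39 (adjusted p = 0.0589). The median of the regulators, -0.12 as deposited, was -0.19 with TPM, -0.08 with median-of-ratios and -0.06 with mitochondria-free scaling, where the median of all genes was -0.10, -0.005 and 0.02. Of the other genes named, 15 passed with array weights, 3 with the atrial marker covariate (adjusted p = 0.0478), 5 without CCl4 replicate 1, 3 without Control replicate 1 and 8 without both hearts numbered 1 (0.00111 to 0.0492). With TPM scaling Ppargc1a was at -0.015, Prox1 at -0.009, Ep300 at -0.015 and Ncoa2 at -0.014; Prox1 was at -0.001 without the atrium-rich pair. Esrrg was at 0.01, 0.004 and 0.021 under median-of-ratios, quantile and mitochondria-free scaling. With 1 heart left out, Ppargc1a ran from -0.058 to 0.164, Prox1 from -0.011 to 0.086, Ep300 from -0.02 to 0.09 and Ncoa2 from -0.001 to 0.074. The cause of these shifts was not tested. With the replicate number as a replicate block, 0 genes were higher and 0 lower (193 and 867 at an unadjusted p under 0.05), and Pparg had an adjusted p of 0.478. Hearts of the same number deviated together at r = -0.474 to 0.232, and 2 of 6 correlated best with their own number. Xist was near 0 in replicates 2 and 5 of both groups. With only 6 numbers, these values cannot settle whether the numbers pair the hearts. Ppara and Esrrb, both near or under 1 RPKM, are the regulators whose values rest on the fewest reads.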
